A study of Homo sapiens with 6 samples.

Results

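BH3-only genes encode the pro-apoptotic members of the BCL2 family that carry a single BCL2 homology domain. The 8 genes BCL2L11 (BIM), BBC3 (PUMA), PMAIP1 (NOXA), BMF, BID, BAD, BIK and HRK were taken by symbol, matched through their Ensembl identifiers. They are 8 of the 30330 genes listed for each library, and all 8 were among the 24560 genes tested. The cells were NCI-H1975, an established line from a human lung adenocarcinoma, whose mutated epidermal growth factor receptor (EGFR) is inhibited by osimertinib (OSI). The control group was NCI-H1975 labelled as control, with no treatment named (n = 3 libraries). The resistant group was H1975/OSI (n = 3), derived from the same line under OSI steps that began at 0.03 µM, passed through 0.1, 0.3 and 1 µM, ended at 3 µM and took 7 months. The resistant cells are 1 derived line, and the labels do not say whether OSI was in the medium at harvest. The labels do not say whether replicate libraries are from separate cultures. The p-values therefore describe the spread among libraries, part or all of which may be technical.

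In the mitochondrial pathway of apoptosis, BH3-only proteins bind the anti-apoptotic proteins BCL2, BCL-XL and MCL1 and free or directly activate the pore-forming proteins BAX and BAK. BIM, PUMA and the cleaved form of BID bind all the main anti-apoptotic proteins, whereas NOXA binds mainly MCL1 and BAD binds mainly BCL2 and BCL-XL. In EGFR-mutant lung cancer cells, EGFR signalling through ERK is known to keep BIM low, and EGFR inhibitors raise BIM as part of how they kill the cells.

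Recovered read totals were 15813497 to 16588479 per control library and 15174126 to 16276518 per resistant library. Of 11 epithelial and lung adenocarcinoma markers, 10 had a mean of at least 1 TPM (a read count per base of gene length, scaled to the same total in every library) in each group, and their summed level was 3328 to 3438 TPM in control and 2572 to 2865 TPM in resistant libraries. SFTPB, a surfactant gene, was under that level in both groups. Single markers moved more than the sum: the adhesion genes EPCAM (379 ± 21.9 to 17.6 ± 2.03 normalized read counts, log2 difference -4.36) and CDH1 (-1.66) and the keratin KRT19 (-1.18) fell, and the lung factor NKX2-1 rose (0.69). Summed levels were 2.80 to 3.39 TPM in control and 4.28 to 6.21 TPM in resistant libraries for 4 leukocyte markers, 8.71 to 9.91 and 19.3 to 28.8 TPM for 5 endothelial markers, and 92.3 to 111 and 115 to 124 TPM for 4 fibroblast markers, among which LUM had no read in any control library. The endothelial markers moved in opposite ways, CDH5 from 4.17 to 21.9 TPM and PECAM1 from 4.67 to 2.45 TPM. Most of the fibroblast sum was COL1A1, at a mean of 98.1 TPM in control and 115 TPM in resistant libraries. On normalized read counts COL1A1 was not called (log2 difference 0.05, limma adjusted p = 0.625). LUM had a mean of only 0.327 TPM in resistant libraries, and PDGFRB went from 2.81 to 4.32 TPM. Both were called higher. Whether these marker levels bear on the BH3-only genes was not tested. Resistant library 1 stood apart: its counts differed from those of resistant libraries 2 and 3 with a chi-square per gene of 12.1 and 13.5, whereas those libraries differed from each other by 2.42 and controls by 2.55 to 3.93. EGFR itself was at 5487 ± 401 normalized read counts in control and 4988 ± 739 in resistant libraries (limma adjusted p = 0.205). Without resistant library 1, or with median centring, EGFR was called lower (log2 difference -0.26 and -0.28). DUSP6, an ERK phosphatase whose RNA follows ERK activity, fell from 1045 ± 51.6 to 154 ± 5.32, a log2 difference of -2.75.

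The comparison asked which BH3-only transcripts changed with acquired OSI resistance. BCL2L11, PMAIP1, BMF and BIK were lower in H1975/OSI, BID and BAD were higher, and BBC3 and HRK did not pass the test. The largest difference was that of BCL2L11, whose mean was 2.10-fold higher in control than in resistant libraries by the log2 fit. Values are normalized read counts, given as mean ± SD (n = 3 per group). Differences are resistant minus control on the log2(value + 1) scale, with their standard error, and adjusted p-values are from limma-trend with Benjamini-Hochberg adjustment over all 24560 genes. In this bulk RNA, fewer cells that express a gene and less RNA per cell cannot be told apart.

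Of the 8 genes, 6 were called at an adjusted p under 0.05, whereas 41.5% of all tested genes were called. The call was lower for 4 of 8, with a background of 21.1%, and higher for 2 of 8, with a background of 20.4%. The same 6 genes had groups that did not overlap, which held for 50.1% of all tested genes. By direction, 4 of 8 were lower without overlap (25.4% of all genes) and 2 of 8 higher (24.7%). With differences this common across the transcriptome, the count of 6 does not set these genes apart. BCL2L11 was the 1 gene that was also called with an absolute log2 difference of at least 1, as were 13.6% of all genes. The median difference was -0.44 over the 8 genes and 0.01 over all tested genes. Centring every library on its median gene moved all log2 differences by -0.13 and left 0 genes higher and 4 lower. Scaling to equal summed values per base of gene length, which shifted the median over all tested genes by 0.18, left 2 genes higher and 2 lower.

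**Figure D1:**
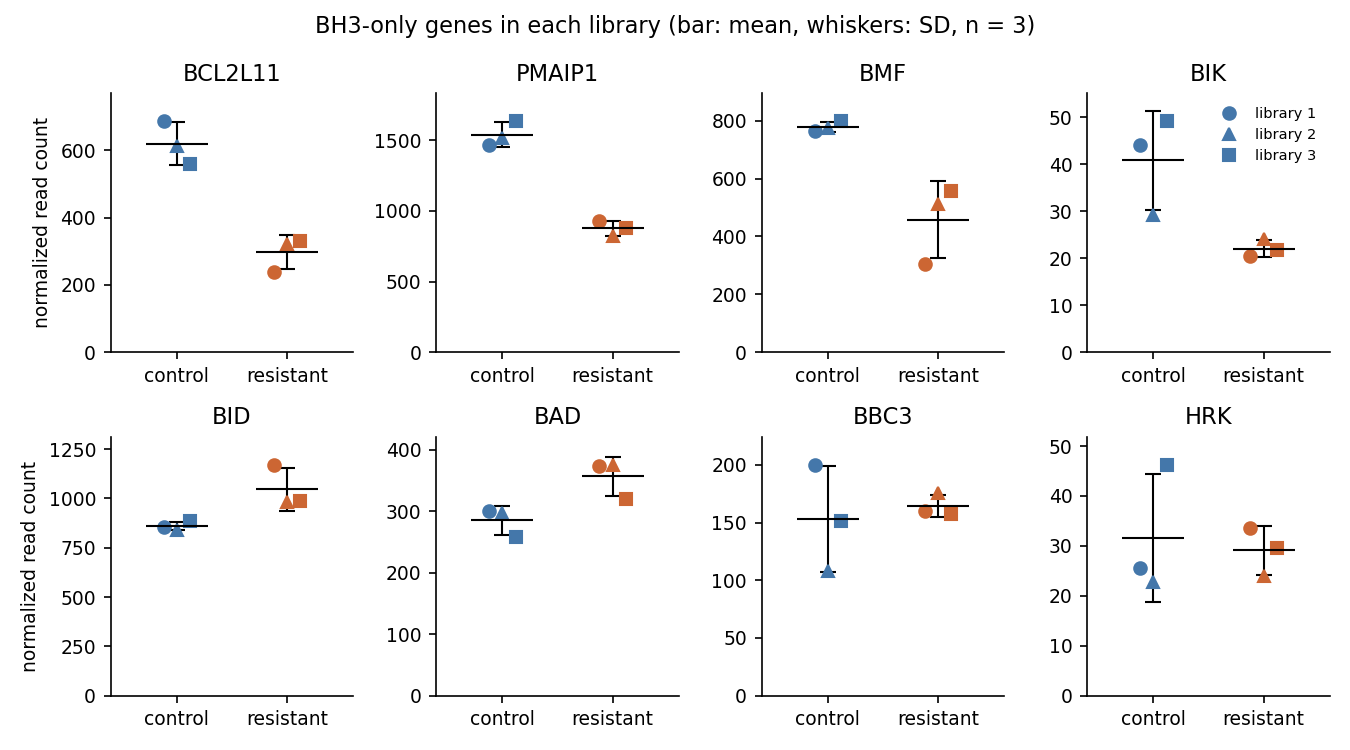
Normalized read count (y axis, linear from 0) of each BH3-only gene in the 3 control and 3 resistant libraries; points are libraries, bars are means and whiskers are SD. BCL2L11, PMAIP1, BMF and BIK lie lower in every resistant library, BID and BAD lie higher, and BBC3 and HRK overlap.

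BCL2L11 encodes BIM, an activator of BAX and BAK that is held on the dynein light chain and is marked for degradation by ERK. The gene (ENSG00000153094) lies on the plus strand of chromosome 2, from 111119378 to 111168447 on GRCh38. Its values were 686.92, 614.14 and 559.95 in control libraries 1 to 3, and 239.66, 321.19 and 331.47 in resistant libraries 1 to 3. Every resistant value lay well under every control value, and resistant library 1 was the lowest of all. The mean fell from 620 ± 63.7 to 297 ± 50.3, a log2 difference of -1.07 ± 0.11 (95% interval -1.31 to -0.83, limma-trend adjusted p = 1.01e-07). Without resistant library 1 the difference was -0.92. The antisense gene MIR4435-2HG, a long non-coding RNA, shares 727 of the 6658 exon bases of BCL2L11. Strand handling of the library and the counting was not given in the sources used here, so reads there cannot be assigned to a strand. MIR4435-2HG was at 560 ± 26.9 in control and 577 ± 23.1 in resistant libraries (log2 difference 0.04, adjusted p = 0.716).

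PMAIP1 encodes NOXA, which binds MCL1 and promotes its degradation. The gene (ENSG00000141682) spans 59899948 to 59904306 on the plus strand of chromosome 18. Control libraries held 1464.20, 1518.19 and 1634.54, and resistant libraries 931.10, 819.60 and 877.02. All 3 resistant values were lower than all controls, with a small spread in both groups. The mean fell from 1539 ± 87.1 to 876 ± 55.8, and the log2 difference was -0.81 ± 0.07 (95% interval -0.97 to -0.66, adjusted p = 2.95e-09), which was the smallest p among the 8 genes.

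BMF, like BIM, is held on a dynein light chain and is known for its part in the death of detached epithelial cells. The gene (ENSG00000104081) spans 40087890 to 40108892 on the minus strand of chromosome 15. Values were 762.90, 776.24 and 798.00 in control libraries, and 305.95, 510.40 and 556.40 in resistant libraries. The controls lay close together, and resistant library 1 stood far under the other resistant libraries. Relative spread was 2.27% of the mean in control and 29.1% in resistant libraries. The mean fell from 779 ± 17.7 to 458 ± 133, with a log2 difference of -0.81 ± 0.24 (95% interval -1.41 to -0.22, adjusted p = 0.0406). Without resistant library 1 the difference was -0.55 (adjusted p = 7.40e-08). The call ended without control library 1, 2 or 3 and in 10 of 20 alternative analyses in total, although all 20 gave a lower level in the resistant line.

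BIK encodes a BH3-only protein of the endoplasmic reticulum. The gene (ENSG00000100290) spans 43110748 to 43129712 on the plus strand of chromosome 22. Its reads were few: 43, 28 and 51 in control and 20, 26 and 22 in resistant libraries. Normalized, they were 44.15, 29.10 and 49.15 against 20.40, 24.00 and 21.70. Control library 2 came close to the resistant libraries without meeting them. The mean fell from 40.8 ± 10.4 to 22.0 ± 1.82, with a log2 difference of -0.83 ± 0.27 (95% interval -1.38 to -0.27, adjusted p = 0.0151). The call ended without control library 1 or 3, and under the scaling to equal sums per base (-0.65).

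BID links death receptors to mitochondria, since caspase-8 cleaves it into its active form. The gene (ENSG00000015475) spans 17734138 to 17774770 on the minus strand of chromosome 22. Control libraries held 854.29, 841.71 and 883.77, and resistant libraries 1170.76, 980.20 and 987.51. Every resistant value exceeded every control value, and resistant library 1 was the highest. The mean rose from 860 ± 21.6 to 1046 ± 108, with a log2 difference of 0.28 ± 0.08 (95% interval 0.11 to 0.44, adjusted p = 0.00608). The call ended with median centring, where the difference was 0.14. CASP8, the protease upstream of BID, fell from 1127 ± 89.3 to 729 ± 31.5 (log2 difference -0.63). The microRNA gene MIR3198-1 lies inside BID and shares 0 of its 4446 exon bases.

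BAD is the BH3-only protein controlled by survival kinases, which phosphorylate it so that 14-3-3 proteins hold it in the cytosol. The gene (ENSG00000002330) spans 64269830 to 64284704 on the minus strand of chromosome 11. Values were 300.85, 297.20 and 257.32 in control libraries, and 374.28, 375.65 and 319.63 in resistant libraries. The groups did not overlap, but the lowest resistant value was close to the highest control value. The mean rose from 285 ± 24.1 to 357 ± 32.0, with a log2 difference of 0.32 ± 0.11 (95% interval 0.10 to 0.54, adjusted p = 0.0171). The call ended under median centring (0.19) and without control library 3 or resistant library 2. GPR137, on the opposite strand, shares 404 of the 1708 exon bases of BAD, and it rose from 533 ± 46.6 to 773 ± 57.6 (log2 difference 0.54, adjusted p = 1.74e-05). Reads in the shared bases cannot be told apart without strand.

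BBC3 encodes PUMA, which is induced by DNA damage and by FOXO factors. The gene (ENSG00000105327) spans 47220822 to 47232766 on the minus strand of chromosome 19. Values were 200.22, 108.07 and 151.31 in control libraries and 160.11, 175.36 and 157.84 in resistant libraries. The resistant libraries all fell within the range of the controls. The log2 difference was 0.14 ± 0.17, with a 95% interval of -0.21 to 0.50 (adjusted p = 0.545).

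HRK encodes harakiri, best known from neurons. The gene (ENSG00000135116) spans 116856144 to 116881441 on the minus strand of chromosome 12. Its values were 25.67, 22.86 and 46.26 in control and 33.65, 24.00 and 29.60 in resistant libraries. The resistant libraries again lay within the control range. The log2 difference was -0.06 ± 0.29, with a 95% interval of -0.65 to 0.53 (adjusted p = 0.889). These intervals leave room for sizeable changes of either gene, and the sign of both differences turned under some alternatives, from -0.08 to 0.36 for BBC3 and from -0.25 to 0.24 for HRK.

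**Figure D2:**
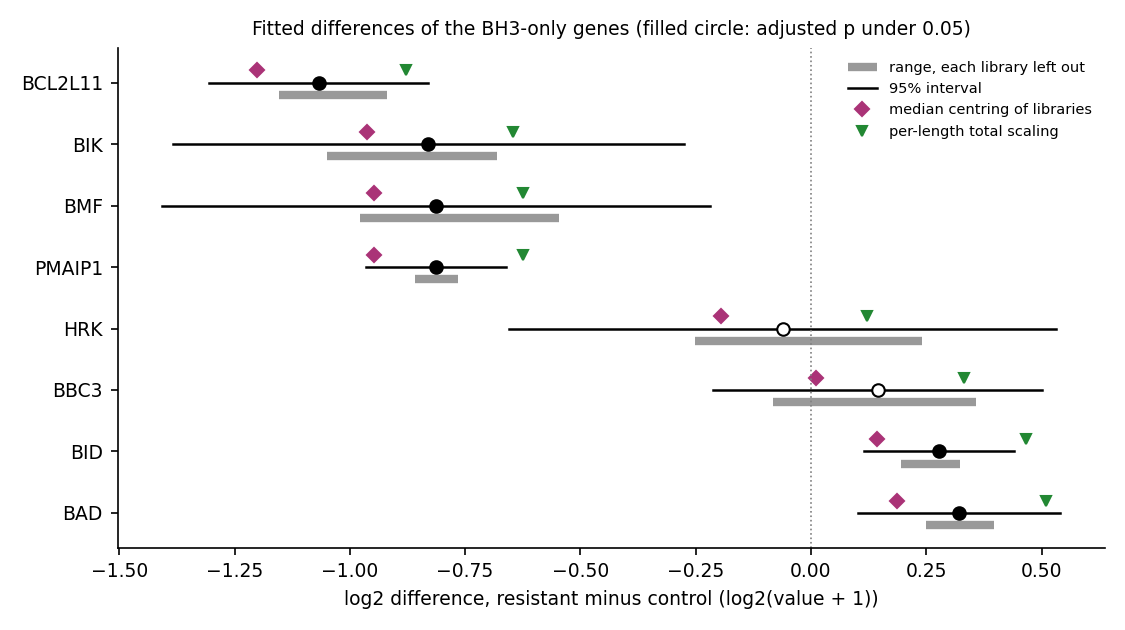
Log2 difference between resistant and control libraries for each BH3-only gene, with its 95% limma interval (line), the range with each library left out (grey bar), and the values under median centring (diamonds) and per-length total scaling (triangles). The intervals of BCL2L11 (-1.31 to -0.83) and PMAIP1 (-0.97 to -0.66) lie far from 0, and those of BBC3 and HRK include 0.

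The plot of differences and intervals shows how unevenly the 8 genes were determined. BCL2L11 and PMAIP1 kept their calls in all 20 alternatives, with differences of -1.20 to -0.88 and -0.95 to -0.62. BID lost its call in 2 of 20, BIK in 3, BAD in 4 and BMF in 10. Resistant library 1 was the lowest of its group for BCL2L11, BMF and BIK and the highest for PMAIP1, BID and HRK. Its deviation from the control mean was -1.36 for BCL2L11, compared with -0.94 and -0.90 in the other resistant libraries, and -1.35 for BMF, compared with -0.61 and -0.48 (log2). For PMAIP1 the same library had the smallest deviation, at -0.72 against -0.91 and -0.81.

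Levels of different genes were compared per length, as TPM computed from the recovered reads and the listed gene lengths. TPM is the scaling to equal summed values per base of gene length, which shifted the median log2 difference by 0.18. Differences between groups in TPM, marker and gene sums included, are therefore on another scale than the tested differences. BID, for example, was 1.21-fold higher in resistant libraries by the log2 fit. PMAIP1 was the most abundant of the 8 in both groups, at 138 ± 9.15 TPM in control and 89.5 ± 3.83 TPM in resistant libraries. BID (38.8 ± 1.73 and 53.6 ± 3.41 TPM) and BAD (33.4 ± 2.61 and 47.6 ± 3.53 TPM) came next. BMF followed at 28.7 ± 1.00 TPM in control and 19.3 ± 6.23 TPM in resistant libraries. BCL2L11 ranked 5 in control at 18.7 ± 2.01 TPM, and 6 in resistant libraries at 10.3 ± 2.09 TPM. BBC3 exchanged places with it, at 9.69 ± 3.07 and 11.8 ± 0.908 TPM. BIK (8.61 ± 2.36 and 5.29 ± 0.586 TPM) and HRK (0.928 ± 0.388 and 0.967 ± 0.137 TPM) were the least abundant.

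Neighbours in this order were separate in every library, with few exceptions. In control libraries BBC3 and BIK overlapped. In resistant libraries BMF overlapped BBC3, and BBC3 overlapped BCL2L11, so the exchange of places between BBC3 and BCL2L11 was within their spread. The 8 genes summed to 280.0, 262.5 and 288.0 TPM in control libraries 1 to 3 and to 233.3, 239.7 and 242.3 TPM in resistant libraries 1 to 3. PMAIP1 made up 49.9 ± 2.13% of that sum in control and 37.5 ± 1.82% in resistant libraries.

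**Figure D3:**
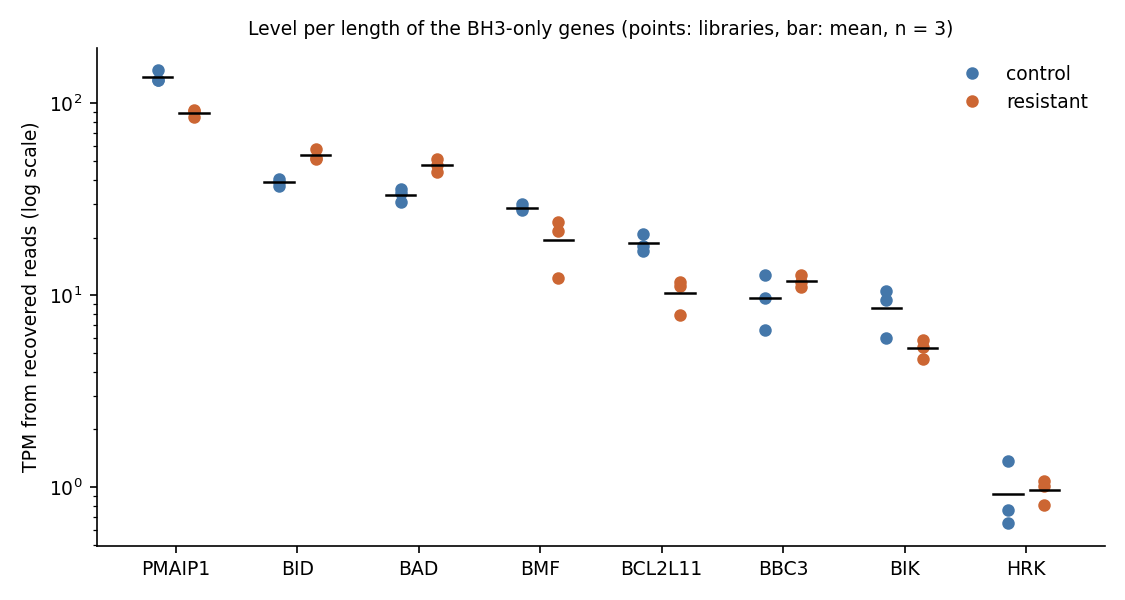
Level per length (TPM, log scale) of the BH3-only genes in each library, with group means as bars, ordered by control level. PMAIP1 is highest in both groups (138 and 89.5 TPM) and HRK lowest (0.928 and 0.967 TPM).

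Promoter sequence was available from RefSeq (GRCh38.p14) for 7 of the 8 genes, BIK being the exception. The 250 bases before each RefSeq start were searched on both strands for motifs of factors tied to BH3-only genes. These were FOXO (TGTTTAC), the half-site of the cyclic AMP response element or CRE (TGACGT), AP-1 (TGANTCA), E2F (TTTGGCGC or TTTCGCGC), the ATF4 composite site (TGATGNAAT) and SP/KLF (GGGCGGG). Shown here are the stretches of the 3 lower genes with the most reads and, for contrast, of BBC3, which was not called. Capitals mark every motif match, and no stretch holds a base of a GENCODE 29 exon. They are BCL2L11 at chr2:111120664-111120913 (plus strand), PMAIP1 at chr18:59899746-59899947 (plus strand), BMF at chr15:40108893-40109129 (minus strand) and BBC3 at chr19:47232767-47232917 (minus strand), each written 5′ to 3′.
BCL2L11: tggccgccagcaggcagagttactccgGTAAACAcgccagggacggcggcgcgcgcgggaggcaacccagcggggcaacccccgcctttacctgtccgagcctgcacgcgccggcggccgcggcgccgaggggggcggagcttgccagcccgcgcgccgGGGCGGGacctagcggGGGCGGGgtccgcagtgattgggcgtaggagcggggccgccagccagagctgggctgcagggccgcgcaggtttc
PMAIP1: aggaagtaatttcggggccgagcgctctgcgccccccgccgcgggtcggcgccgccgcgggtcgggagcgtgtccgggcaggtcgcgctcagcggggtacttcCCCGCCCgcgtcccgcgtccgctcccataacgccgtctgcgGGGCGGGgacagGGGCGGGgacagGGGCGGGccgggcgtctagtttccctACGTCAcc
BMF: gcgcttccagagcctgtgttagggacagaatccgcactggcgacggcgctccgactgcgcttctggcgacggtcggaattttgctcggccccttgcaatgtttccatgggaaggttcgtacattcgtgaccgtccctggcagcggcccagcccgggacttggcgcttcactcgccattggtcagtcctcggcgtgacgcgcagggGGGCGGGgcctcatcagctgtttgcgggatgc
BBC3: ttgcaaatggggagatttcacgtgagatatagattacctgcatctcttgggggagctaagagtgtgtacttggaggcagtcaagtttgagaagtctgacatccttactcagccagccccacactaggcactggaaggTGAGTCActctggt

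The BCL2L11 stretch, which lies inside the GENCODE 29 gene but in none of its exons, held a FOXO match, GTAAACA on the printed strand, 223 to 217 bases before the RefSeq start. A FOXO match was present in 2.98% of the 35116 promoters searched over the same length. It also held 2 SP/KLF matches. PMAIP1 held the CRE half-site ACGTCA 56 to 51 bases before its start, and 4 SP/KLF matches. The CRE half-site was present in 7.10% of promoters, and in BAD among the other BH3-only genes. BMF held 1 SP/KLF match in the stretch shown. BBC3 held an AP-1 match, TGAGTCA, 113 to 107 bases before its start, as 6.57% of promoters did. SP/KLF letters were found before 6 of the 7 genes, BBC3 lacking them, and in 31.5% of all promoters. The first count takes any window of a gene, and BID had 5 windows and BAD and BMF 2 each. The second is a share of single windows, so the 2 are not alike. E2F and ATF4 composite letters were in none of the 7 genes' windows and in 0.968% and 0.888% of all promoters. A match describes letters only, and a missing match says only that these letters are not in this window.

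The 10 tested genes on each side of every BH3-only gene were set beside it. For background, 20.4% of all tested genes were called higher and 21.1% lower, and the neighbour counts were not tested against these shares. Around BCL2L11, 2 of 20 neighbours were higher and 6 lower, with a median log2 difference of -0.23 against -1.07 for BCL2L11. Around BMF, 3 were higher and 8 lower (median -0.26). Around PMAIP1, 4 were higher and 2 lower (median 0.07), although PMAIP1 itself was lower. Around BID, 6 were higher and 4 lower (median 0.21), close to the 0.28 of BID. The medians around BAD (0.10), BBC3 (0.06), BIK (-0.01) and HRK (-0.14) were small, with 4 higher and 5 lower, 4 and 4, 3 and 4, and 2 and 3.

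**Figure D4:**
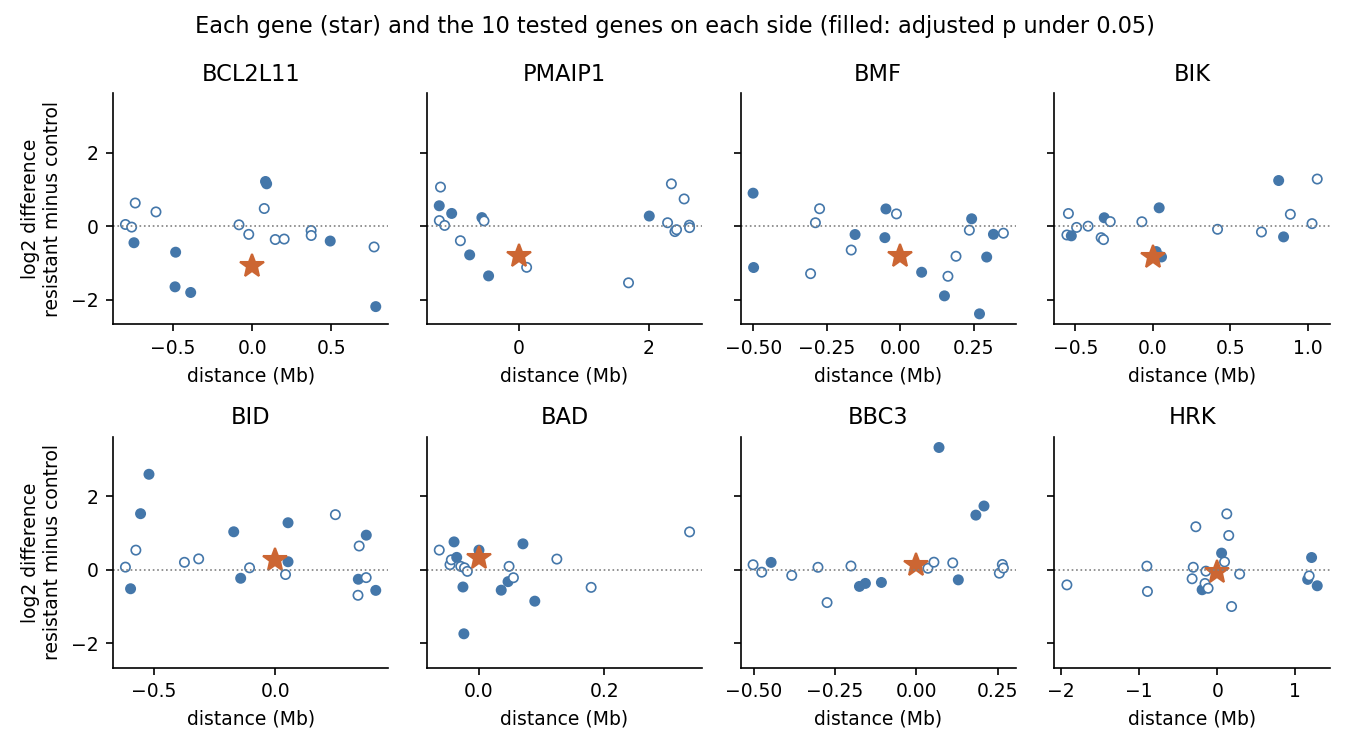
Log2 difference of each BH3-only gene (star) and of the 10 tested genes on each side (circles, filled where called), against distance in Mb. PMAIP1 lies at -0.81 among neighbours with a median of 0.07, and BCL2L11 at -1.07 among neighbours with a median of -0.23.

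The anti-apoptotic genes, whose proteins the BH3-only proteins bind, were also lower where they were called. Of 6 tested, 3 were lower and 0 higher, with a median log2 difference of -0.52. The background over all tested genes was 21.1% lower and 20.4% higher. MCL1, the partner of NOXA and BIM, fell from 9446 ± 347 to 6868 ± 147 (-0.46). BCL2L1, which encodes BCL-XL, fell from 1250 ± 13.8 to 832 ± 74.8 (-0.59). BCL2A1, a further anti-apoptotic member, fell from 46.3 ± 9.17 to 5.36 ± 4.97 (-3.15). BCL2 (-0.19), BCL2L2 (-0.09) and BCL2L10 (-0.68), the last named after its value was seen, were not called. Summed per length, the 6 genes were at 553 ± 26.9 TPM in control and 455 ± 23.9 TPM in resistant libraries. Most of that sum was MCL1, at a mean of 433 TPM in control and 359 TPM in resistant libraries.

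Since BCL2L11, PMAIP1, MCL1 and BCL2L1 were all lower, ratios within a library were taken, which do not depend on scaling between libraries. The log2 ratio of BCL2L11 to MCL1 was -3.93 ± 0.19 in control and -4.54 ± 0.23 in resistant libraries, a difference of -0.61. The ratio of BCL2L11 to BCL2L1 differed by -0.48, and without resistant library 1 by -0.26. That of PMAIP1 to MCL1 differed by -0.35. The ratio of BID to BCL2L1 was higher in the resistant line by 0.87. Groups did not overlap for any of these 4 ratios. Each had a two-sided exact permutation p of 0.1 (0.1 after adjustment over the 4), the smallest that 3 against 3 libraries allow, so none could pass 0.05. BCL2L11 and PMAIP1 were thus lower relative to MCL1 in every resistant library than in any control library.

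Among the effectors that BH3-only proteins activate and the channel genes of the outer membrane, 1 of 6 was called, and it was lower. Of all tested genes, 41.5% were called. The pore-forming genes BAX (-0.13), BAK1 (-0.01) and BOK (-0.01) were not called. VDAC1, a channel, fell from 6329 ± 253 to 3593 ± 248 (-0.82). Median centring gave 3 lower calls in this list. The list median was -0.07.

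The caspase pathway list holds genes that act downstream of the mitochondrial pore and death receptor genes, such as FADD, CASP8 and CFLAR. In it, 5 of 16 genes were higher and 6 lower, with a median of 0.10. Over all tested genes 20.4% were higher and 21.1% lower. CYCS, which encodes cytochrome c, was lower (-0.97), as were the adaptor FADD (-0.88), the caspase inhibitor BIRC5 (-0.69) and CASP8. The apoptosome gene APAF1 (0.66) and the inhibitors BIRC2 (0.46), CFLAR (0.45) and BIRC3 (0.27) were higher; BIRC3 was named after its value was seen. Its call ended under median centring (0.13).

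Factors known to activate or repress BH3-only genes were split, with 6 of 22 higher, 9 lower and a median of 0.05. The shares over all tested genes were 20.4% higher and 21.1% lower. FOXO3, an activator of BCL2L11 and BBC3, was at 1410 ± 13.4 in control and 1624 ± 81.0 in resistant libraries (0.20, adjusted p = 0.0177), in the opposite direction to BCL2L11. FOXO4 (0.31), CEBPB (0.41), RELA (0.21) and JUNB (0.20), the last named after its value was seen, were also higher. The calls of FOXO3, FOXO4, RELA and JUNB ended under median centring, and when single libraries were left out: control 1 or 2 or resistant 2 or 3 for FOXO3, control 2 or 3 or resistant 2 for FOXO4, control 1 or 3 for JUNB, and any control or resistant 1 for RELA (0.10 without the last). E2F1, an activator of several BH3-only genes, was lower (-0.96), as were STAT5B (-0.41) and the deacetylase HDAC3 (-0.35). RUNX3, a partner of FOXO3 at BCL2L11, had 15 reads over the control libraries and 0 over the resistant ones. With a floor of 3 reads set for the resistant group, RUNX3 was 4.87-fold lower, an estimate from few reads.

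Of 28 genes whose proteins modify or hold BH3-only proteins, 6 were higher and 14 lower, with a median of -0.17; over all tested genes 20.4% were higher and 21.1% lower. YWHAQ, a 14-3-3 protein of the kind that binds phosphorylated BAD, was lower (-1.15). So were the BAD kinase RPS6KB1 (-1.09), the phosphatase subunit PPP2CA (-0.94) and DYNLL2. DYNLL2 encodes the dynein light chain that holds BMF, and it fell from 2051 ± 51.3 to 1035 ± 53.6 (-0.99). Kinases that phosphorylate BH3-only proteins were higher, namely RPS6KA1 (0.51), PRKACA (0.28), AKT1 (0.28) and MAPK8 (0.26). The calls of the last 3 ended under median centring, and that of MAPK8 also without control 1 or 2 or resistant 3. Median centring gave 1 higher and 16 lower in the list.

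The factors ATF4 and ATF3 of the integrated stress response are known to induce PMAIP1 and BBC3. In this list 9 of 12 genes were higher and 0 lower, with a median of 1.08. Among all tested genes 20.4% were higher and 21.1% lower. ATF3 rose from 1016 ± 37.2 to 5384 ± 725 (2.40), NUPR1 from 219 ± 19.0 to 917 ± 136 (2.05), and VLDLR (1.72) and ASNS (1.36) were also higher. ATF4 (0.27), DDIT3 (1.15) and TRIB3 (0.09), named after their values were seen, were not called. ATF4 was called higher without resistant library 2 or 3 (0.32 and 0.36), and DDIT3 without resistant library 1 (0.70). TRIB3 was called lower without resistant library 1 (-0.15). PMAIP1 was lower while 9 genes of this list were higher.

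**Figure D5:**
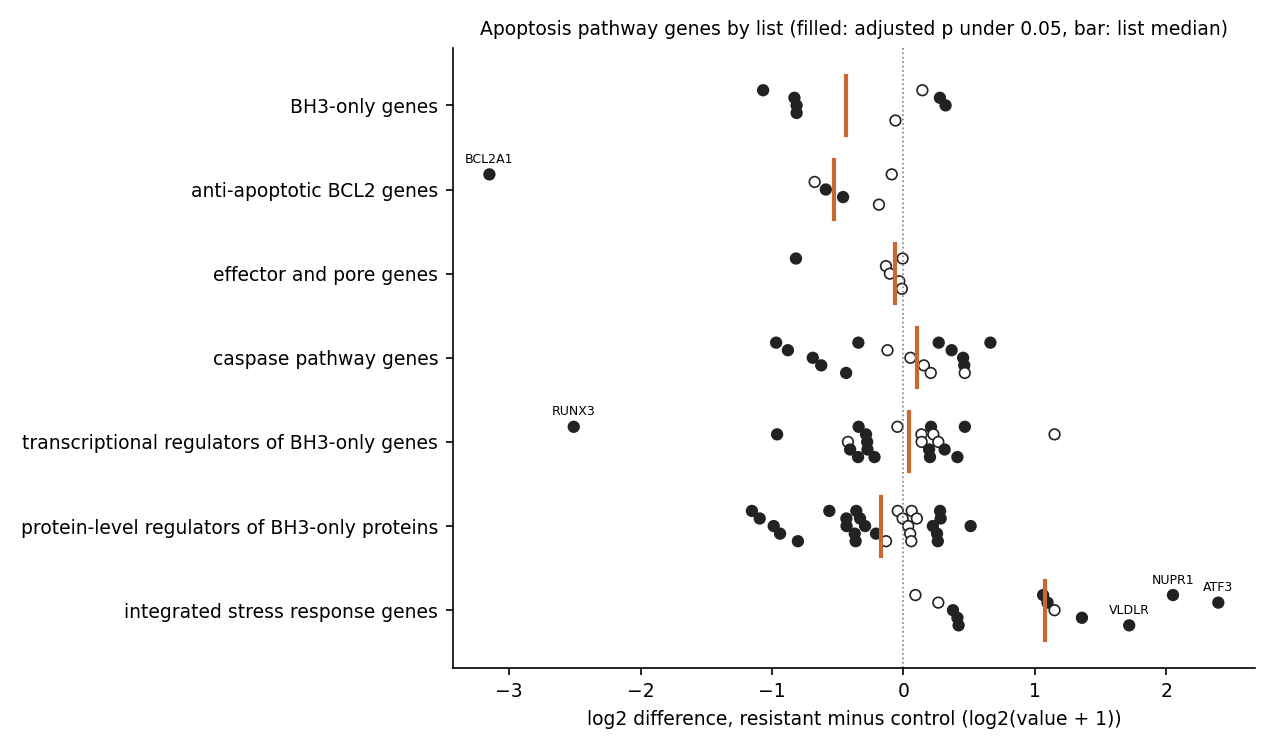
Log2 difference of every tested gene in 7 lists of the apoptosis pathway; points are genes, filled where the adjusted p was under 0.05, and bars are list medians. Medians range from -0.52 for the anti-apoptotic genes to 1.08 for the integrated stress response genes, beside 0.01 over all tested genes.

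Genes with the most similar pattern were sought among 10645 protein-coding genes with a mean value of at least 100, by Euclidean distance over the 6 libraries on the log2 scale after subtracting the control mean. The closest to BCL2L11 were MED1 (distance 0.113), XYLB (0.132) and FASN (0.152). For PMAIP1 they were FBXO5 (0.0949), INTS2 (0.0956) and SOWAHC (0.109). BID was most closely matched by HBP1 (0.0355), PHF10 (0.0461) and FAM53B (0.0686). The nearest genes to BBC3, PHLPP2 (0.315), CLDN23 (0.351) and SLC25A20 (0.355), were farther away. MED1 went from 1498 ± 84.7 to 726 ± 142 and was lowest in resistant library 1, as BCL2L11 was. Choosing genes by distance over the same 6 libraries favours such a likeness, which was not tested.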

How the data were processed

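RNA-seq libraries of total RNA (3 control, 3 resistant, NCI-H1975 cells) were analysed, grouped by their labels. The labels name NEBNext Ultra and SMARTer kits, and the submitters' processing notes name GRCh38. Not given in the sources used here are the aligner, counter, normalization tool and strand handling. For each library, the authors deposited gene lengths and a value per gene on a signal scale. Dividing a library's deposited signal values by its smallest step gave whole numbers, within 0.001 reads, for 100% of values, so they are read counts divided by 1 size factor per library, called normalized read counts here. Because the deposited values were normalized, the log-scale test was used, and count tests were run on the recovered reads.

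A gene was tested where 3 or more libraries had a value of at least 1, on log2(value + 1) with limma-trend (limma 3.58.1, R 4.3.3, robust), group as the only term, two-sided, at an adjusted p of 0.05. On the recovered reads, edgeR 4.0.16 called 10159 genes. On the normalized values, limma-trend called 10204. TPM used the listed gene lengths. A log2 difference understates changes of genes with few reads. Exon overlaps came from GENCODE 29. The test was tried on simulated counts with the read totals and estimated dispersions of the 3 resistant and 3 control libraries (23398 genes). It found 96 of 100 planted 2-fold changes and 66 of 100 planted 1.5-fold changes, and 14 of its calls were false (7.95%). Only these genes, all with more than a few reads, were changed, whereas 41.5% of tested genes were called in the data. No simulated library stood apart as resistant library 1 did, so these rates need not hold for this comparison.

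The BH3-only genes, the pathway lists and the markers were chosen with earlier results of these data known. Named from each list were up to 4 called genes with the largest difference in each direction, plus a fixed set (MCL1, BCL2, BCL2L1, BCL2L2, BCL2A1, BAX, BAK1, BOK, FOXO3, DUSP6, EGFR) and genes overlapping a BH3-only gene; some genes the rule takes and 1 list are not reported here. The marker genes PTPRC, CD3E, DCN and PDGFRA were not found by symbol among the genes listed for each library, so they could not be analysed. Scaling to equal sums per base of gene length was chosen after seeing the data.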

Additional observations from a re-analysis of the deposited data

How the results depend on the processing

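The alternatives were quantile normalization, median centring, scaling to the protein-coding total or to equal sums per base of gene length, a minimum of 5 or no filter, limma without trend, a pseudocount of 0.1 or 0.01, a replicate block, removal of trends on GC content and length, edgeR, DESeq2 1.42.0, limma-voom, and each library left out. No difference called in the report changed sign. BMF (main -0.81) missed the threshold without trend (-0.81, adjusted p = 0.0568), without the filter (-0.81, 0.0820), by edgeR (-0.76, 0.0545), after GC and length removal (-0.80, 0.0548), and under quantile (-0.76, 0.0537), protein-coding (-0.74, 0.0781) and per-base scaling (-0.62, 0.106). With a library left out it ranged from -0.98 to -0.55, missing without control 1, 2 or 3. BID missed without trend (0.28) and with median centring (0.14), as did BAD (0.32 and 0.19). BAD ranged from 0.25 to 0.40 with a library left out (missed without control 3 or resistant 2), and BIK from -1.05 to -0.68 (missed without control 1 or 3). BIK also missed with per-base scaling (-0.65). BH3-only genes called were 6, but 3 without trend, and 3 to 6 with a library left out. Calls in the effector list went from 1 to 3 with median centring, and among transcriptional regulators from 15 to 6 without trend and to between 8 and 17 with a library left out. Calls over all genes ranged from 7914 to 10519. The share of calls that were higher was 49.1%, 35.8% with median centring and 67.6% with per-base scaling. With a replicate block, BMF had an adjusted p of 0.000281, no BH3-only gene changed its call, and 10175 genes were called in place of 10204; the numbers did not pair the libraries (same-number correlations -0.00, 0.00 and 0.01). DESeq2 gave no adjusted p for 3335 genes. TRIB3, not called, ranged from -0.15 to 0.22 with a library left out, turning sign without resistant 1. ATF4 and DDIT3 were called by DESeq2 (0.28 and 1.30), limma-voom and the block, and ATF4 also under quantile, protein-coding and per-base scaling (0.37, 0.34 and 0.45). BIK had 20 to 51 reads per library, and whether depth bears on its calls was not tested.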
